A study of Mus musculus with 3 samples.

Results

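The regions described here carried strong DNase I hypersensitive sites in fat cells grown from inguinal white fat (iWAT) and in fat cells grown from brown fat (BAT), while the list from epididymal white fat (eWAT) held no site in them. Overlapping or touching sites (sharing at least 1 coordinate) of the 3 lists were merged into 99297 regions, of which 6682 were held by iWAT and BAT and not by eWAT. The members were the 743 of these (11.1%) with a site in the top 25% by tag count of the iWAT list and of the BAT list. They made up 8.79% of the regions strong in both lists. Each member held exactly 1 iWAT site and 1 BAT site. Members were selected on their measured tag counts in iWAT and BAT and on their absence from the eWAT list, so these values are given as a description and without a test.

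DNase I cuts DNA where chromatin is open, and sites with many cut ends mark promoters, enhancers and other stretches bound by regulatory proteins. Inguinal fat lies under the skin, and its cells can take on features of brown fat, the heat-producing depot, in cold or under drugs that activate PPARγ. Epididymal fat lies inside the abdomen and takes on such features less readily. Open chromatin that inguinal and brown fat cells hold and epididymal cells lack is therefore of interest for how depots keep their identity.

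All 3 groups were primary cultures from male NMRI mice of 4 to 5 weeks, with 1 library per depot. The tissues were inguinal white fat, brown fat (interscapular, cervical and axillary depots pooled) and epididymal white fat. Stromal-vascular cells, which contain the fat cell precursors, were freed with collagenase and differentiated in DMEM with newborn calf serum (10%), insulin (30 nM) and the PPARγ activator rosiglitazone (1 µM), along with ascorbate, HEPES, glutamine, streptomycin and penicillin. Cultures were harvested on day 8, and those with more than 50% differentiation were used, so the nuclei of other cells could make up part of each library. The DNase I concentration was 120 U/ml. The lists hold positions without gene names, and an annotation of their build (mm9) was not used here, so no region is assigned to a gene and the depot labels were not checked against marker genes.

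The lists held 63214 sites in iWAT, 48308 in BAT and 60974 in eWAT. Their tag counts moved in whole steps of 0.985, 0.857 and 0.595 normalized tags, which are what 1 tag was worth, and the median site held 14, 14 and 16 tags. The median fold of a site over its local background was 9.91 in iWAT, 9.23 in BAT and 7.46 in eWAT, and each list held only sites at least 4 times above it. There were no replicates, so intervals are exact (Clopper-Pearson for shares, Poisson for tags), at the 95% level, and cover counting error only. Absence from the eWAT list does not show closed chromatin, since tag counts at places without a listed site were not used here. More cells of one kind in a culture and more open chromatin per cell cannot be told apart.

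A strong site held at least 20.7 normalized tags in iWAT and at least 18.0 in BAT, which was 21 tags in each list. These limits took in all sites tied at the value, which made 26.1% of the iWAT list and 26.2% of the BAT list strong. At the limit in 1 or both lists stood 102 of the 743 members. Just outside it, with 17.1 normalized tags in BAT and a strong iWAT site, stood 65 regions, and with 19.7 in iWAT and a strong BAT site stood 59. Counting error alone spans this limit for most members: the lower bound of the tag count stayed at or above 21 tags in both lists for 166 of 743 (22.3%, 95% interval 19.4 to 25.5).

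Regions strong in both iWAT and BAT were seldom without an eWAT site. The members made up 8.79% of the 8450 regions strong in both lists (95% interval 8.2 to 9.42), while 21.1% of the 31691 regions held by both lists at any strength had no eWAT site. Seen from the other side, 11.1% of the 6682 regions of iWAT and BAT without eWAT were strong in both, 641 were strong in iWAT alone and 409 in BAT alone, and 4889 were strong in neither. For regions strong in iWAT, whatever BAT held, 18.2% had no eWAT site, and for regions strong in BAT 17.3%.

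The share without an eWAT site fell as the sites grew stronger. Taking the lower of a region's percentile ranks in iWAT and BAT, it was 12.9% (95% interval 11.5 to 14.4) of the 2159 regions between the 75th and 80th percentile. It was 11.4% between the 80th and 85th, 7.77% between the 85th and 90th and 7.02% between the 90th and 95th percentile. Above the 95th percentile 51 of 1566 regions (3.26%, 2.43 to 4.26) had no eWAT site. Members were thus weighted towards the lower end of the strong sites. Their median percentile rank was 87.2 in iWAT and 86.0 in BAT, against 91.7 and 90.3 for the 7707 regions strong in iWAT and BAT that eWAT also held.

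In tags, the median member held 27.6 normalized tags in iWAT (28 tags) and 23.1 in BAT (27 tags). The middle 50% of members ranged from 23.6 to 35.5 normalized tags in iWAT and from 19.7 to 28.3 in BAT. The ranks ran from 25 to 14966 in iWAT, with a median of 7687, and from 23 to 11477 in BAT, with a median of 6457. In the top 10% of both lists stood 166 members (22.3%, 95% interval 19.4 to 25.5), against 39.4% (38.3 to 40.5) of the regions strong in iWAT and BAT that eWAT also held. These were the same 166 members whose lower bound stayed at or above 21 tags, since both limits came to 31 tags in each list.

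**Figure D1:**
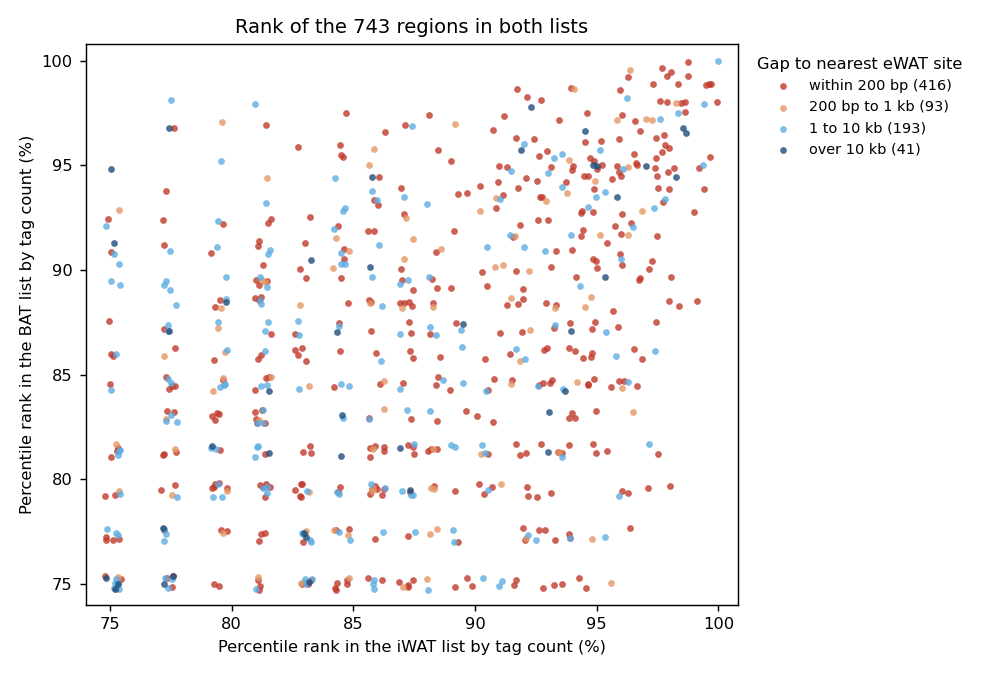
Percentile rank by tag count of each of the 743 members in the iWAT list (x axis) and in the BAT list (y axis), coloured by the gap to the nearest eWAT site; points were spread by a small random amount because ranks come in steps. The upper right corner, where both ranks are high, holds mostly members within 200 bp of an eWAT site, and the members over 10 kb away lie across the whole range.

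Across members the iWAT and BAT tag counts ranked alike only in part. Spearman's rho was 0.42 over the 743 members and 0.59 over the 7707 regions strong in iWAT and BAT that eWAT also held. These are descriptions across regions of the same libraries within a range limited by the rule. The percentile rank was higher in iWAT for 420 members (56.5%, 95% interval 52.9 to 60.1), and the median difference of iWAT minus BAT was 0.8 percentile points. The ranks lay within 5 points of each other for 363 members, while 94 stood more than 10 points higher in iWAT and 44 more than 10 points higher in BAT. This lean was not particular to members. The 7707 regions that eWAT also held had median percentile ranks of 91.7 in iWAT and 90.3 in BAT. Of them, 59.4% stood in the top 10% of the iWAT list and 50.2% in that of the BAT list, against 40.9% and 33.9% of members.

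The member leaning most to iWAT lay on chromosome 6 at 117828932 to 117829205, with 40.4 normalized tags in iWAT (rank 2513) and 18.0 in BAT (rank 11477). The next, on chromosome 19 at 46976094 to 46976320, held 37.4 in iWAT and 18.0 in BAT. The BAT site of both stood at the lower limit for a strong site. An eWAT site lay 517 bp from the first and 60 bp from the second, and both eWAT sites were strong.

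The member leaning most to BAT lay on chromosome 1 at 38455684 to 38455940, with 21.7 normalized tags in iWAT (rank 13578) and 44.5 in BAT (rank 781). The next, on chromosome 2 at 29147560 to 29147816, held 20.7 in iWAT (21 tags, 95% interval 13.0 to 32.1) and 33.4 in BAT (39 tags, 27.7 to 53.3). The third lay on chromosome 6 at 47316211 to 47316464, with 21.7 in iWAT and 37.7 in BAT. The nearest eWAT sites of these 3 members were 5.38, 32.4 and 15.4 kb away. The same places thus differed in rank between iWAT and BAT by as much as 20.9 percentile points although both lists called them strong.

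Most members lay next to an eWAT site. The gap to the nearest eWAT site, taken from the edge of the region to the edge of the site, had a median of 152 bp and a longest value of 52.9 kb. An eWAT site lay within 200 bp of 416 members (56.0%, 95% interval 52.3 to 59.6), within 1 kb of 509 (68.5%, 65.0 to 71.8) and within 10 kb of 702 (94.5%, 92.6 to 96.0). Over all 6682 regions of iWAT and BAT without eWAT, 40.2% had an eWAT site within 1 kb. For the 5939 of these that were not members it was 36.6% (35.4 to 37.8), with a median gap of 3.17 kb. By tag count, members thus had an eWAT site within 1 kb more often than the other regions of the class. Tag counts also chose the members, so this is a description and not a test. The share of members depended on the settings. With strong sites chosen by fold over local background, 38.8% (34.9 to 42.9) lay within 1 kb. With merging extended to gaps of up to 200 bp, which removes the nearest eWAT sites by construction, it was 27.2% (22.6 to 32.2). The share among the other regions of the class was not taken at these settings.

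Split by the same tag counts that chose them, members of the highest ranks more often had an eWAT site within 1 kb, which is a description only. Of the 51 members with both ranks above the 95th percentile, 42 lay within 1 kb of an eWAT site (82.4%, 95% interval 69.1 to 91.6), against 171 of the 279 members whose lower rank was between the 75th and 80th percentile (61.3%, 55.3 to 67.0).

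The matching classes of the other depot pairs showed the same shape. Of the 606 strong regions of BAT and eWAT without iWAT, 88.1% (95% interval 85.3 to 90.6) had an iWAT site within 1 kb. Of the 941 strong regions of iWAT and eWAT without BAT, 76.4% (73.6 to 79.1) had a BAT site within 1 kb. The members lay at 68.5%, the lowest of the 3 classes. The list that lacks the region differs in length between the classes (60974, 63214 and 48308 sites for eWAT, iWAT and BAT), so the shares are not like for like, and no test between depots can be made with 1 library each.

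**Figure D2:**
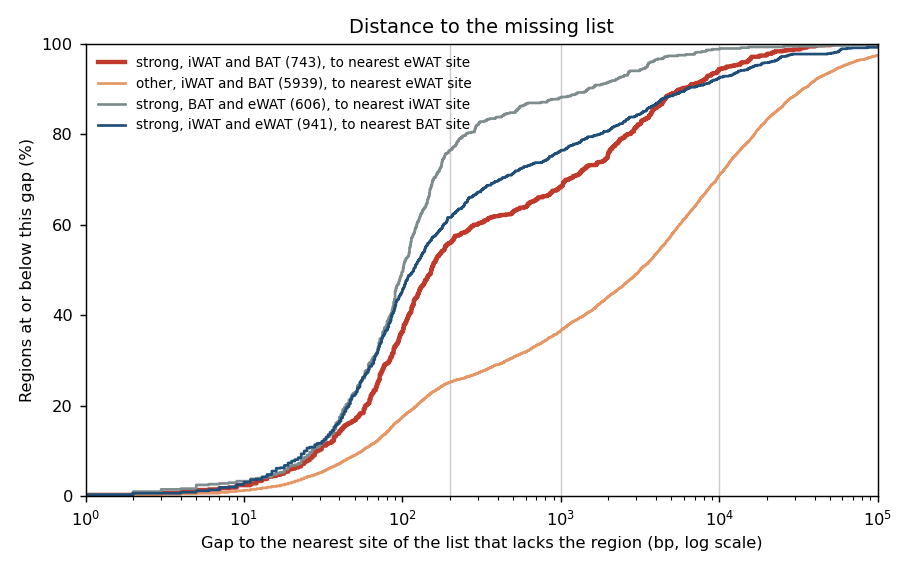
Share of regions (y axis, %) at or below a given gap to the nearest site of the list that lacks the region (x axis, bp, log scale), for the 743 members, the other regions of iWAT and BAT, and the strong regions of the other depot pairs. The curve of the members climbs to 56.0% by 200 bp, flattens, and reaches 94.5% by 10 kb.

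The gaps within 1 kb were mostly very short. Gaps of up to 50 bp numbered 125, those over 50 and up to 100 bp 146, those up to 150 bp 94 and those up to 200 bp 51. Beyond that, 18 gaps were up to 250 bp long and 13 up to 300 bp. The shortest were 1 bp, in 2 members. Sites were merged where they shared at least 1 coordinate, so these sites, which end and start at successive coordinates, stayed apart. The members spanned 179579081 to 179579319 on chromosome 1 and 30497007 to 30497241 on chromosome 5. On chromosome 8 the member at 47896636 to 47896863 held 40.4 normalized tags in iWAT and 27.4 in BAT, and an eWAT site of 22.0 began 2 bp past its end.

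The eWAT sites next to members were mostly strong. For the 416 members within 200 bp, the nearest eWAT site was strong in 330 cases (79.3%, 95% interval 75.1 to 83.1). It was in the top 10% of the eWAT list in 153 (36.8%, 32.1 to 41.6) and overlapped no iWAT or BAT site in 394 (94.7%). Strength was not particular to these: the nearest eWAT site was strong for 79.1% of all 743 members. By gap, it was strong for 89.2% at 200 bp to 1 kb, 79.8% at 1 to 10 kb and 51.2% over 10 kb. It overlapped no iWAT or BAT site for 21.5%, 17.1% and 14.6% at these gaps. Within 200 bp, such an overlap would need a second iWAT or BAT site close to the member's own. Sites of 1 list seldom stood that close, so the 94.7% was largely fixed in advance. Of all 60974 eWAT sites, 25.6% were strong and 19482 were held by eWAT alone. Of all 19482 eWAT sites held by eWAT alone, 1339 (6.87%, 6.52 to 7.24) were strong. Of the 1339 regions that hold these strong sites, 322 (24.0%, 21.8 to 26.4) had a member within 200 bp. The same share over all regions held by eWAT alone was not taken, so the 24.0% has no background here. The eWAT site lay at higher coordinates than the member in 192 of the 416 cases and at lower coordinates in the others.

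Among members within 200 bp, the median distance from the iWAT centre to the eWAT centre was 326 bp, and from the BAT centre 312 bp. Within a list, the shortest distance between the centres of neighbouring sites was 357 bp in iWAT, 397 bp in BAT and 361 bp in eWAT. Centres under 444 bp (2 site widths) apart were rare there: 0.12% of neighbouring sites in iWAT, 0.0828% in BAT and 0.126% in eWAT. Of the 743 members, 428 (57.6%) had an iWAT or BAT centre that close to the eWAT centre, and 393 (52.9%) had both. The shares within a list count neighbouring sites and these count members, so they are not like for like. The part of this spacing in the absence of an eWAT site was not tested. The lists alone do not show whether each depot had tags both at the member and at the eWAT site beside it. With merging extended to gaps of up to 200 bp, 353 members were left, which were 3.8% of the regions strong in iWAT and BAT.

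The iWAT and BAT sites of a member were each 222 bp wide and had to overlap or touch. Their centres could thus be at most 222 bp apart, so a short distance was partly fixed by the rule. The same limit held for the other regions of iWAT and BAT without eWAT. The distances are given as a description and not as a test of agreement between iWAT and BAT. The iWAT and BAT centres of a member were a median of 31.0 bp apart, with the middle 50% between 12 and 63 bp, and 288 (38.8%) were at most 20 bp apart. Regions strong in iWAT and BAT that eWAT also held had a median of 30.0 bp, and the other regions of iWAT and BAT without eWAT one of 50.0 bp. The median width of a member was 253 bp, against 272 bp for the other regions of iWAT and BAT without eWAT, and the width of a region made of 2 overlapping sites is set by this distance between centres.

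The 10 members with the highest summed ranks show this pattern. In 9 of the 10 the nearest eWAT site lay 28 to 162 bp away and stood at a percentile of 95.1 to 99.4 in its list. The member on chromosome 14 at 76234230 to 76234461 held 69.9 normalized tags in iWAT (71 tags, 95% interval 55.5 to 89.6, rank 214) and 51.4 in BAT (60 tags, 45.8 to 77.2, rank 409). An eWAT site of 33.3 normalized tags, rank 692, ended 89 bp before it. On chromosome 3, the member at 65921943 to 65922181 held 57.1 in iWAT (rank 634) and 72.8 in BAT (rank 85), and an eWAT site of 34.5 (rank 595) lay 106 bp away.

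Further members of this kind lay on other chromosomes. The member on chromosome 1 at 107822470 to 107822695 held 67.0 normalized tags in iWAT and 48.8 in BAT, with an eWAT site of 38.1 (rank 364) at 80 bp. That on chromosome 10 at 79131653 to 79131901 held 70.9 in iWAT and 47.1 in BAT, stood 32.4 and 23.2 times above its local background, and had an eWAT site of 29.1 (rank 1286) at 28 bp. That on chromosome 11 at 101191756 to 101191992 held 71.9 in iWAT, the second highest iWAT value of the 10, and 42.0 in BAT, with an eWAT site of 23.8 (rank 2866) at 125 bp. In all of these the eWAT list held a strong site beside the member and none in it.

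The exception was the highest member of all, near the start of chromosome 9 at 3018871 to 3019097. It held 152.7 normalized tags in iWAT (155 tags, rank 25) and 145.6 in BAT (170 tags, rank 23). It stood only 4.13 and 4.57 times above its local background, close to the minimum of 4 that the lists allow. The nearest eWAT site, of 95.2 normalized tags and rank 24, lay 3.46 kb away in a region common to all 3 lists. In the first 4 Mb of a chromosome lay 8 members in all.

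Members far from eWAT sites stood less clearly above their surroundings. Median fold over local background was 11.2 in iWAT and 10.6 in BAT for the 416 members within 200 bp of an eWAT site. It was 6.41 and 6.33 for the 93 members at 200 bp to 1 kb, and 5.54 and 5.78 for the 193 members at 1 to 10 kb. Over 10 kb away, the 41 members had medians of 6.03 and 5.55. Tag counts differed less: the median in iWAT was 29.6 normalized tags within 200 bp and 25.6 over 1 kb, and in BAT 23.1 and 22.3.

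A fold under 6 in at least 1 of the 2 lists was seen in 52 of 416 members within 200 bp (12.5%) and in 167 of 234 beyond 1 kb (71.4%). By list, 28.1% of members (95% interval 24.9 to 31.5) were under 6 in iWAT and 27.3% (24.1 to 30.7) in BAT. Of the regions strong in iWAT and BAT that eWAT also held, 4.62% (4.16 to 5.11) and 4.5% (4.05 to 4.99) were. The median fold of the whole eWAT list was the lowest of the 3, and a minimum of 4 applied to every list. The part of this minimum in the absence of an eWAT site was not tested. When only sites at least 6 times above their background were used in all lists, 895 regions met the rule. Of these, 40.2% had an eWAT site within 1 kb. This limit thinned the eWAT list the most. It left 54093 of 63214 sites in iWAT, 40352 of 48308 in BAT and 43443 of 60974 in eWAT, so these values are not like for like with the others.

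**Figure D3:**
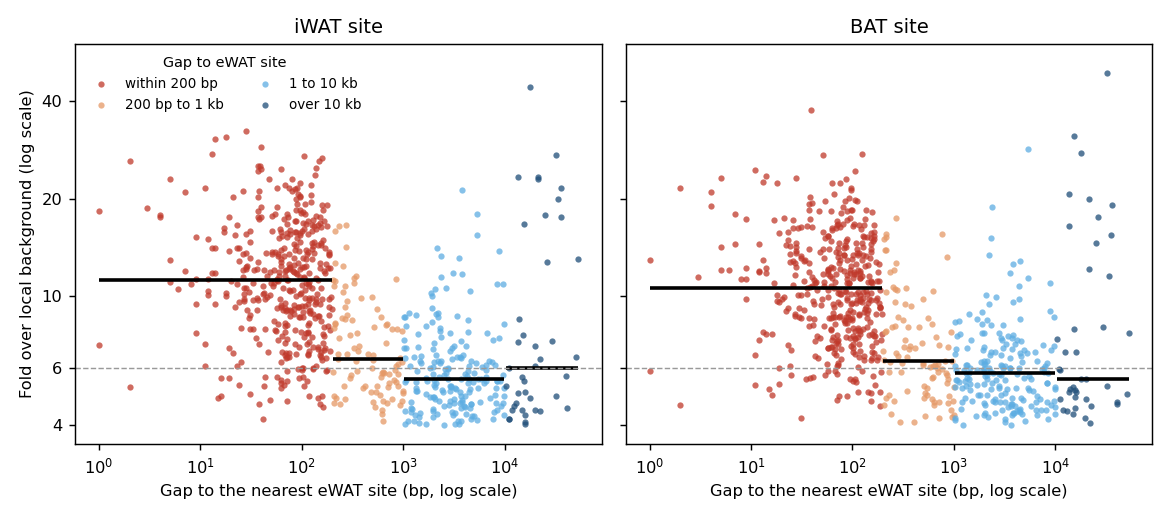
Fold over local background of the iWAT site (left) and the BAT site (right) of each member on a log scale, against the gap to the nearest eWAT site (bp, log scale); black bars are medians of the 4 gap ranges and the dashed line marks 6-fold. Medians are 11.2 and 10.6 within 200 bp, and a small group of members over 10 kb away stands above 10-fold while the others there lie between 4 and 9.

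How sharply the tags were centred went the other way. The median focus ratio, between 0 and 1, was 0.653 in iWAT and 0.651 in BAT for members within 200 bp of an eWAT site. Beyond 1 kb it was 0.693 and 0.688. The regions strong in iWAT and BAT that eWAT also held had 0.708 and 0.711.

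The members with the clearest lack of an eWAT site were those over 10 kb from one and at least 6 times above their background in both lists, a choice made with the values known. Of the 743 members, 15 met it. The one with the highest summed ranks lay on chromosome 19 at 57347658 to 57347885, with 39.4 normalized tags in iWAT (40 tags, rank 2710) and 25.7 in BAT (30 tags, rank 4906). It stood 20.02 and 11.5 times above its background, and the nearest eWAT site was 33.6 kb away. On chromosome 3 the member at 137880749 to 137880974 held 35.5 in iWAT and 22.3 in BAT at 23.3 and 20.7 times background, with the nearest eWAT site 13.6 kb away.

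On chromosome 6 were 2 of the 15. The member at 50670732 to 50670972 held 34.5 normalized tags in iWAT and 20.6 in BAT at 17.5 and 15.5 times background, and the nearest eWAT site was 35.6 kb away. The member at 47316211 to 47316464, already given as leaning to BAT, stood 16.7 times above background in iWAT and 31.1 times in BAT. By percentile rank the first stood higher in iWAT and the second in BAT.

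The highest iWAT fold and the highest BAT fold among the 743 members belonged to this small set, which was itself chosen partly by fold. Of the 41 members over 10 kb from an eWAT site, 26 had a fold under 6 in at least 1 list. On chromosome 5 the member at 114998770 to 114999026 held 24.6 normalized tags in iWAT (25 tags, 95% interval 16.2 to 36.9) and 26.6 in BAT (31 tags, 21.1 to 44.0), at 44.0 and 27.7 times background. Its focus ratios were 0.862 and 0.8, and the nearest eWAT site was 18.0 kb away. On chromosome 2 the member at 29147560 to 29147816 stood 27.2 times above background in iWAT and 48.9 times in BAT, with focus ratios of 0.852 and 0.909 and the nearest eWAT site 32.4 kb away. Both were among the weaker strong sites of the iWAT list by tag count.

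The longest gap belonged to the member on chromosome 4 at 46829195 to 46829533, which held 25.6 normalized tags in iWAT and 20.6 in BAT at 13.0 and 7.7 times background, 52.9 kb from the nearest eWAT site. On chromosome 14 the member at 64718375 to 64718643 held the minimum of 20.7 in iWAT and 18.0 in BAT, at 21.5 and 19.1 times background, and its nearest eWAT site, 36.0 kb away, was a weak one of 6.54. On chromosome 13 the members at 108713675 to 108713899 and at 18463797 to 18464047 had their nearest eWAT sites 21.4 and 25.2 kb away. The first held 25.6 and 21.4 normalized tags in iWAT and BAT, the second 20.7 and 18.0.

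The other 5 of the 15 were among the weaker strong sites, with 21.7 to 24.6 normalized tags in iWAT and 18.0 to 20.6 in BAT. Chromosome 3 held one at 5090338 to 5090563, 29.3 kb from the nearest eWAT site, and chromosome 7 one at 132709364 to 132709628, at 13.7 kb. Chromosome 14 held one at 32859840 to 32860083, at 26.4 kb. Those on chromosome 5, at 3803184 to 3803410 and at 16153679 to 16153969, lay 15.3 and 21.6 kb from an eWAT site.

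Between 1 and 10 kb from an eWAT site, 52 members stood at least 6 times above background in both lists. The highest in rank lay on chromosome 11 at 21471985 to 21472209, with 40.4 normalized tags in iWAT and 32.5 in BAT at 7.17 and 6.17 times background, 2.02 kb from an eWAT site. The next, on chromosome 9 at 21728366 to 21728608, held 34.5 and 32.5 at 11.5 and 15.2 times background, 2.35 kb from an eWAT site that was not strong (11.3 normalized tags). The member leaning most to BAT, on chromosome 1 at 38455684 to 38455940, belonged here too, with folds of 17.9 in iWAT and 28.5 in BAT.

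The surroundings of members were not empty of eWAT sites. Within 50 kb of a member's centre lay a mean of 6.09 other iWAT sites, 5.06 other BAT sites and 6.16 eWAT sites. The regions strong in iWAT and BAT that eWAT also held had 5.29, 4.3 and 4.98 other sites. Their own eWAT site was left out of this count, while members had none to leave out, so the eWAT means are not like for like. Even around the 41 members over 10 kb from an eWAT site, eWAT held a mean of 4.1 sites within 50 kb, as many as the 4.1 of BAT and fewer than the 4.88 of iWAT, and only 2 of the 41 had no eWAT site there. Within 10 kb those 41 members had few neighbours in their own lists as well: 27 had no other iWAT site and 24 no other BAT site.

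Members were spread thinly along the genome, and few lay close together. The median gap to the next member was 570.0 kb. Another member lay within 100 kb of 155 members (20.9%, 95% interval 18.0 to 24.0) and within 25 kb of 75 (10.1%, 8.02 to 12.5). For the 941 strong regions of iWAT and eWAT without BAT the share within 100 kb was 22.3% (19.7 to 25.1), and for the 606 of BAT and eWAT without iWAT 13.5% (10.9 to 16.5). A class with more regions has closer neighbours for that reason alone, so these shares do not rank the classes. The 743 members fell into 668 that stood alone and 34 clusters when linked at gaps of up to 25 kb, with 28 clusters of 2 members, 5 of 3 and 1 of 4.

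The cluster of 4 lay on chromosome 11 from 86383580 to 86410227. Within these 26.6 kb iWAT listed 5 sites, BAT 5 and eWAT 2, all of them strong. The members held 24.6, 29.6, 47.3 and 42.4 normalized tags in iWAT and 22.3, 24.0, 42.0 and 22.3 in BAT, from lower to higher coordinates. An eWAT site lay 202, 1032, 157 and 7032 bp from them. The eWAT site beside the third member ranked 207 in its list with 42.2 normalized tags. Linked at up to 100 kb, this cluster grew to 6 members over 114.0 kb, ending at 86497710, with 13 iWAT, 14 BAT and 9 eWAT sites. Fold over background was low here, from 4.83 to 6.77 in both lists for the 4 members.

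On chromosome 1, 3 members lay within 3.66 kb, from 140515538 to 140519202, with no eWAT site among them. They held 25.6, 24.6 and 21.7 normalized tags in iWAT and 19.7, 22.3 and 24.8 in BAT, and stood 4.29 to 6.03 times above background. The nearest eWAT site, of 13.7 normalized tags, lay 3066 bp past the last of them. On chromosome 6, 3 members from 82700775 to 82724446 were 7837 to 9877 bp from an eWAT site, and all sites in that span, 4 in iWAT, 6 in BAT and 2 in eWAT, were strong. In these clusters all 3 members were over 1 kb from eWAT, which was so for every member in 10 of the 34 clusters.

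On chromosome 19 the 3 members from 47376902 to 47384470 surrounded a strong region of BAT and eWAT: its eWAT site, of 25.0 normalized tags, lay 240 to 3708 bp from them. On chromosome 8 the members from 73068252 to 73088827 held 33.5, 27.6 and 30.5 normalized tags in iWAT and 29.1, 19.7 and 20.6 in BAT. The first had an eWAT site at 83 bp and stood 11.9 and 13.4 times above background, while the other 2 were 12948 and 9968 bp from one and stood 4.44 to 5.23 times above it. On chromosome 16 the 3 members from 91829281 to 91862368 had eWAT sites at 165, 24 and 1351 bp. Members with and without a close eWAT site thus stood side by side in the same clusters.

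**Figure D4:**
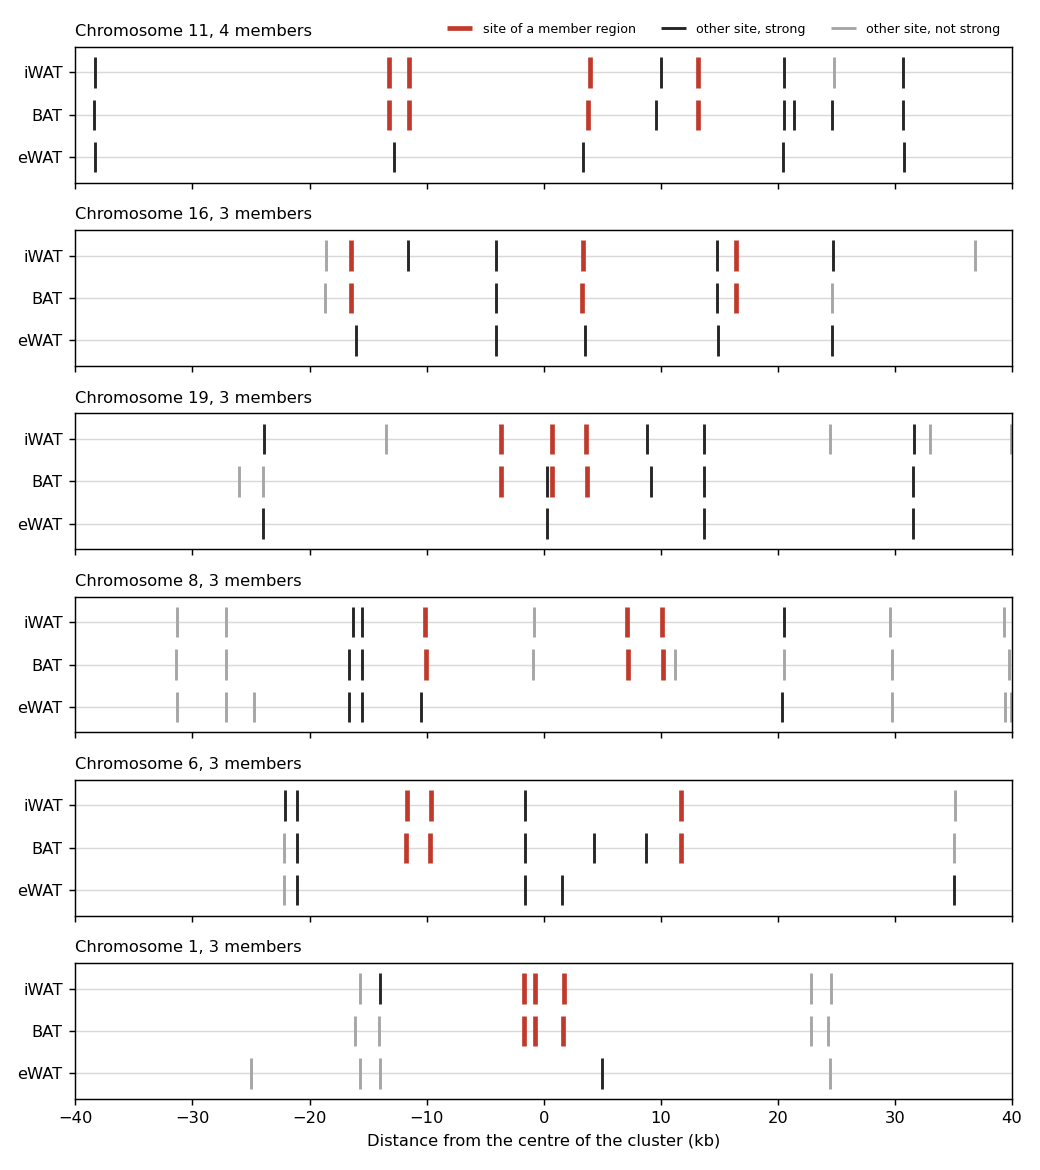
Sites of the iWAT, BAT and eWAT lists within 40 kb of the centre of the 6 largest clusters of members (x axis, kb from the centre); red ticks are member sites, black ticks other strong sites and grey ticks other sites. On chromosomes 1 and 6 no eWAT tick stands within 1 kb of a red pair, whereas on chromosomes 11 and 16 eWAT ticks stand just beside some of them.

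A pair of members on chromosome 3 combined a long gap with high tag counts. At 96303934 to 96304171 the first held 43.3 normalized tags in iWAT (rank 1899) and 32.5 in BAT (rank 2461), and at 96304534 to 96304762 the second held 53.2 (rank 866) and 32.5 (rank 2461). No eWAT site lay within 40.3 kb. Their folds were 4.52 and 4.65 for the first and 5.66 and 4.73 for the second, close to the minimum. In the same window of 100 kb, from 96300001 to 96400000, lay the fifth highest member by summed ranks, at 96380438 to 96380667, with 56.2 in iWAT and 58.2 in BAT and an eWAT site of 28.5 at 162 bp. That window held 9 iWAT, 4 BAT and 5 eWAT sites.

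Counted in windows of 100 kb, 1 window held 4 members, 8 held 3, 35 held 2 and 645 held 1. The window with 4 was on chromosome 11 from 86400001 to 86500000. Next by summed ranks came the chromosome 3 window and that on chromosome 13 from 23500001 to 23600000, which held 16 iWAT, 12 BAT and 12 eWAT sites. The next windows in that order started at 91800001 on chromosome 16 and at 47300001 on chromosome 19. On chromosome 13 a further 4 members lay between 23712705 and 23848769 when linked at up to 100 kb, with 98 to 4447 bp to the nearest eWAT site.

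By chromosome, the members followed the regions strong in iWAT and BAT. Chromosome 1 held the most, 64 members, which were 11.4% of its 561 regions strong in both lists (95% interval 8.9 to 14.3), and chromosome 16 had 38 of 342 (11.1%, 7.98 to 14.9). Chromosome 4 had the lowest share of the autosomes, 33 of 513 (6.43%, 4.47 to 8.92), followed by chromosome 8 with 27 of 405 (6.67%, 4.44 to 9.55). The X chromosome held 8 of 112 (7.14%, 3.13 to 13.6) and the Y chromosome 1 of 19 (5.26%, 0.133 to 26.0). The interval of each chromosome other than chromosome 1 included the 8.79% of the whole set, and that of chromosome 1 began just above it. No chromosome stood apart beyond counting error by more than this.

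**Figure D5:**
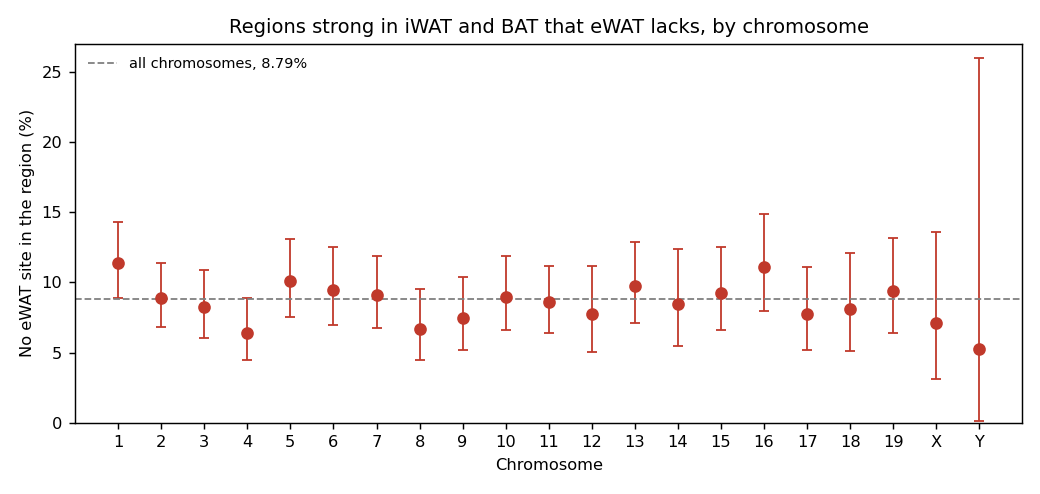
Share of the regions strong in iWAT and BAT that hold no eWAT site, by chromosome (points, %, with 95% Clopper-Pearson intervals), and the share over all chromosomes (dashed line, 8.79%). Points lie between 5.26% on the Y chromosome and 11.4% on chromosome 1.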

How the data were processed

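DNase-seq sites were taken from 1 list per depot. Per the submitters' processing notes, STAR, HOMER and mm9 were used; their roles, versions and settings are not given in the sources used here, and the column names are those of HOMER findPeaks. For each site the authors deposited a normalized tag count (a signal scaled to a library total that is not stated), a score, a focus ratio (a fraction), a fold over local background and a clonal fold (ratios) and a p-value against local background. In each deposited list every fold was at least 4.

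Sites that overlapped or touched, sharing at least 1 coordinate, were merged, with coordinates as deposited. Strong sites were those at or above the 75th percentile of tag count of their list, ties included. Ranks were taken within each list, and the percentile ranks of a member's iWAT and BAT sites were also compared. A gap is the start of one interval minus the end of the other. What 1 tag is worth was read from the steps of the values (tolerance 0.05, or 0.005 below a value of 10), and 100% of values were whole multiples. Whole tags served for Poisson intervals. No test between depots was made, with 1 library each. The members, lists and named regions were chosen with earlier results of these data known. Named were the 10 members of highest summed percentile rank, the 10 with the longest and the 5 with the shortest gap to eWAT, the 5 largest clusters and windows, the 5 leaning most to each list and the 5 of highest fold, from which the text takes examples. The sixth cluster was added because it tied with the fifth in size, and the sets at least 6 times above background and far from eWAT were added after values were seen. The gene lists meant for an mm9 annotation were not used here, and neither was a GRCm38 gene table. The merging and gap code was tested on simulated lists. Python 3.11.15, numpy 2.4.6, pandas 2.3.3, scipy 1.17.1 and matplotlib 3.10.9 were used.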

Additional observations from a re-analysis of the deposited data

How the results depend on the processing

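No paired analysis was possible because each depot has 1 library and no result comes from a test. The 743 members became 353 with sites within 200 bp merged and 166 with the top 10% as strong. The other 10 settings gave between 556 (top 20%) and 934 (overlap of at least 50% of the width). The share of members among regions strong in iWAT and BAT, 8.79%, became 3.8% with sites within 200 bp merged and 11.9% with a 50% overlap. It became 8.01% and 5.18% with the top 20% and 10%, and 12.9% with sites at least 6 times above background. The last setting took more sites from the eWAT list than from the iWAT or BAT list.

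The share with an eWAT site within 1 kb, 68.5%, became 27.2% with sites within 200 bp merged, 77.7% with a 50% overlap and 77.7% with the top 10%. It became 38.8% when strong sites were chosen by fold over background and 40.2% with sites at least 6 times above it. Limits of 500 bp and 2 kb gave 62.9% and 75.9%. The median gap of 152 bp became 2295 bp with sites within 200 bp merged, 83 bp with a 50% overlap and 128 bp with the top 10%. It became 8511 bp by fold and 3456 bp with sites at least 6 times above background; between centres it was 398 bp. Merging within 200 bp removes the nearest eWAT sites by construction. The limit of 6 times background thinned the eWAT list the most. The cause of the changes by fold was not tested.

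The share with another member within 100 kb, 20.9%, became 18.0% and 15.7% with the top 20% and 10% and 8.57% by fold. Limits of 50 and 200 kb gave 14.8% and 29.9%. Lists of equal length (48308 sites), ranking by the deposited score, autosomes only, leaving out the first 4 Mb of chromosomes, and both other treatments of ties (chosen after seeing the data) left every share and the median gap within its 95% interval. Depth limits the choice of members: the limit of 21 tags lies within counting error for most of them.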
